A study of Homo sapiens with 6 samples.

Results

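Keratin genes encode the proteins of the cytoplasmic intermediate filaments of epithelial cells and of hair and nail. The set described here holds every gene whose symbol is KRT followed by a number and, in a few cases, a letter, which leaves out the keratin-associated proteins and the keratin pseudogenes. It has 55 members, 29 of type I and 26 of type II, among the 23228 genes of the count table. The set was selected on the read counts described below, because most of its expressed members were higher, and KRT14 lower, after ALKBH5 knockdown. The values of the members are therefore given as a description, with no test, and the counts of members support nothing beyond themselves.

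RNA-seq was done on polyadenylated RNA of U2OS cells, an established human osteosarcoma line of mesenchymal origin. Cells received a scrambled siRNA (3 libraries) or siRNAs directed at ALKBH5 (3 libraries), and RNA was taken 48 hours later. ALKBH5 removes the methyl group from N6-methyladenosine, a common internal mark of mRNA, and the comparison asks which transcripts differ once its mRNA is depleted. Whether the 3 libraries of a group were separate cultures is not in the labels. The p-values thus speak only of the spread among these libraries, and that spread may be technical. Both groups were the same line under the same transfection reagent, and no second knockdown or rescue was analysed here, so loss of ALKBH5 and any other action of the siRNAs cannot be told apart.

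Keratin filaments form only from pairs of an acidic type I and a basic type II chain, so a cell needs members of both families. KRT8 and KRT18 are the usual pair of simple epithelia, KRT5 and KRT14 the pair of basal keratinocytes, and KRT6A, KRT6B, KRT16 and KRT17 are known for their induction in wounded or stressed epidermis. KRT81, KRT83 and KRT86 belong to the type II keratins of the hair shaft, and several carcinomas also express KRT81. Mesenchymal cells rely mainly on vimentin, and cultured lines of such origin often carry some KRT8 and KRT18.

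ALKBH5 itself was low in every knockdown library. It stood at 138, 148 and 143 CPM (reads scaled to a common library size) in the scrambled libraries and at 19.4, 16.2 and 15.7 CPM in the knockdown libraries, a log2 fold change of -3.06 (SE 0.10). Reads in genes numbered 18817181 to 23410007 per library, so 1 read was worth 0.0416 to 0.0526 CPM. Of the reads with a single placement, 15.0% to 15.5% fell outside genes after scrambled siRNA and 17.3% to 18.6% after knockdown, and their part in the results was not tested. Of all 14504 genes with enough reads to be tested, 61.6% passed an adjusted p of 0.05 in edgeR's quasi-likelihood test, 30.8% as higher and 30.8% as lower. For 67.4% of the tested genes the 2 groups had no overlap in CPM.

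The labelled cell type was checked against its markers. VIM, which encodes vimentin, had 1936 ± 30.8 CPM in the scrambled libraries (SD, n = 3). Among 9 markers of the osteoblast lineage, COL1A1 had a mean of 1526 CPM and SPARC 2030 CPM in the scrambled libraries. RUNX2 had a mean of 25.3, SPP1 15.4, COL1A2 4.44 and ALPL 3.97 CPM there. COL1A2 was uneven, with 25, 202 and 49 reads in scrambled libraries 1 to 3. SP7 and BGLAP had 3 reads each over all 6 libraries and IBSP had 0. The 6 leukocyte markers summed to 3.95 to 7.06 CPM after scrambled siRNA and 3.10 to 6.04 CPM after knockdown, with CD3E at 0 reads. The 5 endothelial markers summed to 6.85 to 9.61 CPM and to 2.36 to 3.58 CPM. The part of other cells in the results was not tested.

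Several keratin genes are close copies of each other, which bears on how a short read can be assigned to them. Over their coding sequences KRT81 and KRT86 were 94.5% identical, and their longest identical run was 605 bases, far beyond the 50 bases of a read. KRT14 and KRT16 were 88.7% identical with a longest identical run of 158 bases. The stretches below, read from GENCODE 29 transcripts (GRCh38) in the direction of transcription, show for each pair 50 bases in which a read could not tell the genes apart and 50 bases in which it could. In the differing stretches the capitals mark the bases that differ between the 2 genes, 17 for KRT81 and KRT86 and 18 for KRT14 and KRT16.
KRT81 and KRT86, coding bases 61 to 110: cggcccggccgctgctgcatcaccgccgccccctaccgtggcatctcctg
KRT81, coding bases 1341 to 1390: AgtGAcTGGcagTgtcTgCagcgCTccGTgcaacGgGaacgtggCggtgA
KRT86, coding bases 1344 to 1393: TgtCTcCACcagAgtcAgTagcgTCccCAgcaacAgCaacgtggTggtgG
KRT14 and KRT16, coding bases 1 to 50: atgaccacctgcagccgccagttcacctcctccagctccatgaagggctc
KRT14, coding bases 970 to 1019: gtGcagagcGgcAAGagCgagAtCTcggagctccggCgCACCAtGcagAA
KRT16, coding bases 976 to 1025: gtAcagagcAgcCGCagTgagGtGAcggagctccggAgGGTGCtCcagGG

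In windows of 50 bases along the whole transcript, 44.6% of those of KRT81, 39.2% of those of KRT86 and 12.8% of those of KRT83 also occurred in another gene. The share was 23.8% for KRT14, 22.0% for KRT16 and 17.4% for KRT17. It was 34.2% for KRT8 and 31.8% for KRT18, mostly in their processed pseudogenes, and 47.1% for KRT6B, mostly in KRT6C and KRT6A. The counts of all these genes are uncertain for that reason, by an amount that these shares do not measure. Alignments that were not unique, 11315580 to 13887503 per library, were not counted to any gene, so these counts may be too low. How many of them came from keratin transcripts was not tested. KRT80, KRT75, KRT79 and KRT7 shared 0.420%, 0.0440%, 0.297% and 1.06% of their windows, and KRT10 and KRT222 shared 0% with genes elsewhere. Windows that an annotated gene overlapping at the same place also holds were counted apart. They were 961 of 1663 for KRT222 (with AC073508.2), 326 of 1513 for KRT18 and 87 of 2077 for KRT8 (with each other), 177 of 1705 for KRT7 (with KRT7-AS), 177 of 2275 for KRT75 (with AC055736.1) and 9 of 2075 for KRT10 (with TMEM99). Reads there cannot be assigned with certainty while the strand setting and annotation of the counting are unknown.

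Keratin reads as a whole were a larger part of the knockdown libraries. All 55 genes together took 32038, 28885 and 28826 reads in the scrambled libraries, that is 0.137%, 0.142% and 0.153% of reads in genes. They took 77483, 81965 and 81116 reads in the knockdown libraries, which was 0.392%, 0.415% and 0.407%. In bulk RNA, more cells with a transcript and more of it per cell cannot be told apart. Of the 55 genes, 14 had no read in any library and 35, those 14 included, had fewer than 30 reads over the 6 libraries. The other 20 are described below by family. Of these, 17 had enough reads for the fit, and 11 of them were called higher, 3 lower and 3 neither, that is 82.4% called beside 61.6% of all tested genes. These are the values that chose the set, and nothing is read from the difference. The median log2 fold change was 1.64 over the 17 keratins, 2.23 over the 9 of type II and 0.05 over the 8 of type I, beside 0.01 over all tested genes.

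**Figure D1:**
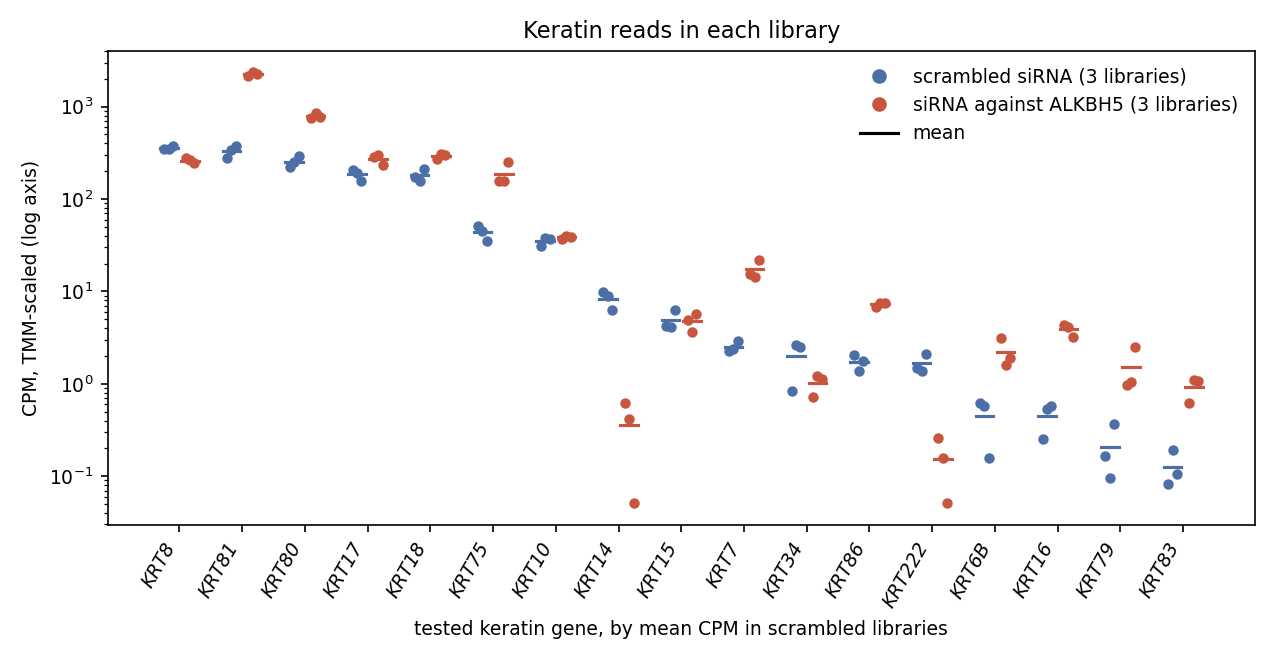
CPM of each of the 17 tested keratin genes (log axis) in the 3 scrambled and the 3 ALKBH5 siRNA libraries, 1 point per library, with a line at the mean. KRT81 lies between 279 and 373 CPM in scrambled and between 2144 and 2354 CPM in knockdown libraries, and KRT14 is the gene with the widest gap in the other direction.

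KRT81, a type II keratin of the hair cortex, had the most reads of the family after knockdown. It stood at 279, 335 and 373 CPM in the scrambled libraries and at 2144, 2354 and 2272 CPM in the knockdown libraries. The lowest knockdown value was far above the highest scrambled value, and the log2 fold change was 2.78 (SE 0.11), a 6.86-fold higher level. KRT81 supplied 21.0%, 24.2% and 24.7% of keratin reads in the scrambled libraries and 54.1%, 54.6% and 54.7% in the knockdown libraries, so more than every other keratin together in the latter.

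KRT86, its neighbour and closest copy, stood at 2.04, 1.39 and 1.78 CPM in the scrambled and at 6.86, 7.52 and 7.48 CPM in the knockdown libraries. The groups did not overlap, and the log2 fold change was 2.06 (SE 0.20). KRT86 had 0.730, 0.416 and 0.477 reads for every 100 reads of KRT81 in the scrambled libraries and 0.320, 0.320 and 0.329 in the knockdown libraries. KRT81 lies inside the span of KRT86 on the opposite strand, and the strand setting of the counting is not given in the sources used here. What part of the KRT86 reads came from KRT81 transcripts was not tested.

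KRT83, another hair keratin, had 2, 4 and 2 reads in the scrambled and 12, 21 and 21 reads in the knockdown libraries. All knockdown libraries were higher, at 0.931 ± 0.28 CPM against 0.127 ± 0.058 CPM (SD, n = 3), with a log2 fold change of 2.83 (SE 0.49). For every 100 reads of KRT81 there were 0.0298, 0.0573 and 0.0281 reads of KRT83 in the scrambled and 0.0286, 0.0469 and 0.0473 in the knockdown libraries, ranges that overlap.

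KRT80, a type II keratin found in many epithelia, stood at 219, 253 and 289 CPM in the scrambled and at 755, 851 and 765 CPM in the knockdown libraries. The groups were well apart, with a log2 fold change of 1.64 (SE 0.10), 3.11-fold higher. Unlike KRT81 it shared almost no read-length window with another gene.

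KRT7, the type II keratin of many glandular and ductal epithelia, stood at 2.25, 2.35 and 2.88 CPM and then at 15.5, 14.5 and 21.9 CPM. Its level was low in both groups compared with KRT80, yet every knockdown library was above every scrambled one. The log2 fold change was 2.80 (SE 0.20), 6.95-fold higher.

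KRT75, which is known from the companion layer of the hair follicle, stood at 51.4, 45.1 and 35.4 CPM in the scrambled and at 158, 156 and 252 CPM in the knockdown libraries. Knockdown library 3 was the highest, and the groups did not overlap. The log2 fold change was 2.10 (SE 0.22), 4.28-fold higher.

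KRT6B, a keratin of wounded epidermis, had 15, 12 and 3 reads in the scrambled and 61, 30 and 37 reads in the knockdown libraries, a log2 fold change of 2.23 (SE 0.42). KRT79, a type II keratin of the hair canal, had 4, 2 and 7 reads and then 19, 20 and 49 reads, a log2 fold change of 2.85 (SE 0.55). Neither gene's groups overlapped, but both rest on few reads, and the spread among their knockdown libraries was wider than the gap to the scrambled libraries. Without scrambled library 3 the log2 fold change of KRT79 was 3.44.

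KRT8, the type II partner of KRT18, was the only tested type II keratin that went down. It stood at 348, 344 and 378 CPM in the scrambled libraries and at 275, 263 and 245 CPM in the knockdown libraries. The groups did not overlap, and the log2 fold change was -0.45 (SE 0.08), 1.36-fold lower.

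KRT18, the type I partner, went the other way. It stood at 171, 155 and 214 CPM in the scrambled and at 273, 310 and 300 CPM in the knockdown libraries, with a log2 fold change of 0.71 (SE 0.11), 1.64-fold higher. Per kilobase of transcript, KRT8 was 1.49, 1.63 and 1.30 times KRT18 in the scrambled libraries and 0.741, 0.624 and 0.599 times KRT18 in the knockdown libraries. The order of the pair was thus turned over in every library. The 2 genes lie end against end, and their annotated spans overlap by 1.083 kb on opposite strands.

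KRT17, a type I keratin of stressed epidermis and of basal and follicular cells, stood at 209, 191 and 157 CPM and then at 285, 301 and 234 CPM. The groups did not overlap, although scrambled library 1 and knockdown library 3 were close, and the log2 fold change was 0.56 (SE 0.12), 1.47-fold higher. KRT16, the partner of KRT6 keratins in wounded epidermis, had 6, 11 and 11 reads in the scrambled and 85, 79 and 62 reads in the knockdown libraries. Its level was 0.451 ± 0.18 against 3.89 ± 0.63 CPM (SD, n = 3), a log2 fold change of 3.12 (SE 0.32), 8.72-fold higher. For every 100 reads of KRT17 there were 0.120, 0.276 and 0.367 reads of KRT16 in the scrambled and 1.53, 1.38 and 1.36 in the knockdown libraries, so this ratio was higher in every knockdown library.

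KRT14, the type I keratin of basal keratinocytes and the closest copy of KRT16 among its neighbours, fell instead. It had 236, 187 and 119 reads in the scrambled libraries and 12, 8 and 1 reads in the knockdown libraries. That is 9.82, 8.98 and 6.22 CPM against 0.614, 0.421 and 0.0512 CPM, a log2 fold change of -4.51 (SE 0.41), 22.8-fold lower. All knockdown libraries were far below all scrambled ones, and knockdown library 3 was lowest with a single read. Without that library the log2 fold change was -3.99, and without knockdown library 1 it was -5.12. KRT14 and KRT16 went in opposite directions. Of the 1613 windows of KRT14, 180 also occur in KRT16, and alignments that were not unique were counted to neither gene. What part these windows had in the values was not tested.

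KRT5, the type II partner of KRT14, was barely detected, with 4, 23 and 3 reads in the scrambled and 0, 2 and 1 reads in the knockdown libraries. Scrambled library 2 held most of its reads, and the gene had too few for the fit. In the scrambled libraries KRT14 thus had many reads and KRT5 few.

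KRT222, a type I keratin-like gene at the outer end of the type I cluster, had 36, 29 and 40 reads in the scrambled and 5, 3 and 1 reads in the knockdown libraries. Its level was 1.66 ± 0.38 against 0.155 ± 0.10 CPM (SD, n = 3), a log2 fold change of -3.36 (SE 0.45), 10.3-fold lower, with the overlap of its transcript with AC073508.2 as given above. KRT34, a hair keratin of type I, had 20, 55 and 48 reads and then 14, 23 and 22 reads, and its groups overlapped, with a log2 fold change of -0.95 (SE 0.42).

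KRT10, the type I keratin of the suprabasal epidermis, was the most abundant member whose groups overlapped. It stood at 31.2, 38.1 and 37.1 CPM and then at 37.3, 39.7 and 38.8 CPM, with a log2 fold change of 0.12 (SE 0.10). KRT15, a keratin of basal and follicular stem cells, stood at 4.25, 4.08 and 6.22 CPM and then at 4.91, 3.63 and 5.74 CPM. Its groups overlapped across their range, and its log2 fold change was -0.02 (SE 0.23).

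Among the members with too few reads for the fit, KRT6A had 2, 10 and 1 reads in the scrambled and 10, 10 and 3 in the knockdown libraries, which overlap. KRT71, a keratin of the inner root sheath, had 27, 16 and 5 reads and then 6, 2 and 1 reads, which overlap as CPM. The 35 genes below 30 reads had at most 24 reads each over the 6 libraries. KRT23 had 7, 8 and 7 reads and then 1, 0 and 1 reads, KRT9 had 4, 5 and 1 reads and then none, and KRT85 had 1, 2 and 0 reads and then 2, 3 and 5 reads. These genes were named after their values were seen, because their groups did not overlap as CPM. KRT19, a type I keratin of simple epithelia, had 0, 3 and 3 reads and then 1, 4 and 4 reads. KRT1, the usual partner of KRT10, had no read in any library, and so had KRT6C.

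Levels per kilobase of transcript allow members to be set beside each other, although the share of windows found in other genes differs among them. In the scrambled libraries KRT81 had 171 ± 24.4 and KRT8 168 ± 8.75 CPM per kb (SD, n = 3), which do not differ beyond their spread, followed by KRT17 with 122 ± 17.4 and KRT18 with 115 ± 19.4, which also lie within their spread. KRT80 had 65.8 ± 9.02, KRT75 18.9 ± 3.47 and KRT10 16.7 ± 1.76 CPM per kb. In the knockdown libraries KRT81 had 1170 ± 54.8 CPM per kb and stood alone at the top. KRT80 with 205 ± 13.7, KRT18 with 188 ± 12.5 and KRT17 with 180 ± 23.1 came next and were close to each other, and KRT8 with 123 ± 7.09 had moved from rank 2 to rank 5. KRT75 followed with 81.0 ± 23.6 and KRT10 with 18.2 ± 0.57. Per kilobase of windows found in no other gene, scrambled means were 316 for KRT81 and 261 for KRT8. By that measure the knockdown means were 285 for KRT18, 226 for KRT17, 208 for KRT80 and 191 for KRT8. The order of KRT80 against KRT18 and KRT17 thus depended on the length used.

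Summed by family, the type I total was 271, 253 and 266 CPM per kb in the scrambled and 385, 421 and 369 CPM per kb in the knockdown libraries. The type II total was 391, 424 and 464 and then 1519, 1646 and 1619 CPM per kb. The transcript ratio of type II to type I was thus 1.62 ± 0.16 after scrambled siRNA and 4.08 ± 0.26 after knockdown (SD, n = 3), and the groups did not overlap. KRT81 made up 37.1%, 41.0% and 41.6% of the type II total in the scrambled and 73.2%, 74.1% and 72.8% in the knockdown libraries. KRT8 made up 41.9%, 38.1% and 38.3% and then 8.51%, 7.53% and 7.12%. With KRT81 left out, the ratio of type II to type I was 0.909, 0.990 and 1.02 in the scrambled and 1.06, 1.01 and 1.19 in the knockdown libraries, groups that overlap. The groups were thus apart in this ratio with KRT81 and overlapped without it. The type II total without KRT81 was still higher after knockdown, and the type I total was higher too. Without KRT81 it was 246, 250 and 271 CPM per kb in the scrambled and 408, 426 and 441 CPM per kb in the knockdown libraries. In a measure added after the data were seen, each gene's full count was divided by its length in windows found in no other gene. The ratio of type II to type I was then 1.88 after scrambled siRNA and 5.00 after knockdown. The reads themselves were not limited to those windows.

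**Figure D2:**
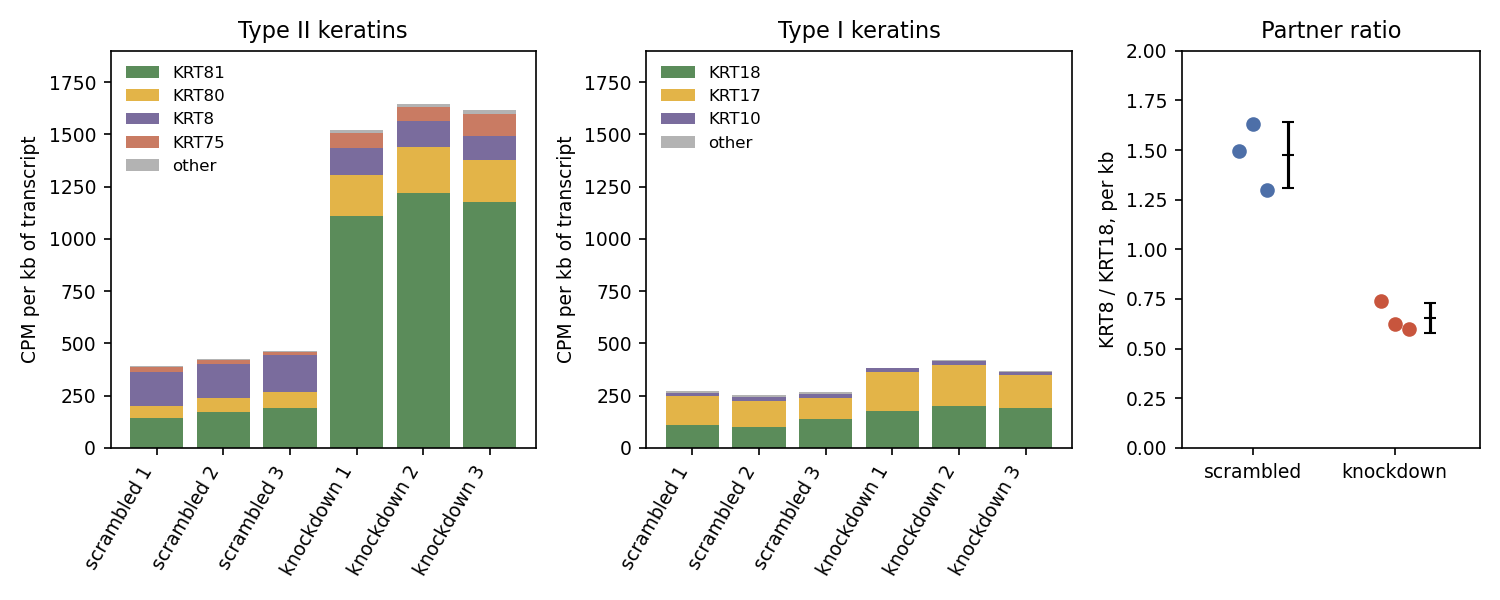
Type II totals (left) and type I totals (middle) in CPM per kilobase of transcript, 1 stacked bar per library, divided by gene. On the right is the KRT8 to KRT18 ratio per kilobase in each library, with the mean. The type II bars rise from between 391 and 464 to between 1519 and 1646 CPM per kb, most of it as KRT81, and the KRT8 to KRT18 ratio falls below 1 in all 3 knockdown libraries.

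Set against vimentin per kilobase, the keratins together were 0.740, 0.734 and 0.808 times VIM in the scrambled libraries and 2.55, 3.29 and 2.83 times VIM in the knockdown libraries. VIM itself fell, as given below, so both terms of this ratio moved.

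The keratin genes lie in 2 clusters. In GRCh38 coordinates from GENCODE 29 (the counts were made on hg19), the type II genes and KRT18 span chr12:52168996-52952901, and the other type I genes span chr17:40654665-41624842. At the outer end of the chromosome 12 cluster, KRT80 (chr12:52168996-52192000, minus strand), KRT7 (chr12:52232520-52252186, plus strand), KRT86 (chr12:52249300-52309163, plus strand), KRT81 (chr12:52285913-52291534, minus strand) and KRT83 (chr12:52314301-52321398, minus strand) are consecutive members within 152.403 kb. All 5 were higher, with log2 fold changes between 1.64 and 2.83, beside 30.8% of all tested genes called higher. The block was marked out after these values were seen, so nothing is read from it. KRT81 lies inside the span of KRT86 and shares windows with KRT86 and KRT83, so their reads may not be independent. The 3 genes that follow, KRT85, KRT84 and KRT82, had 13, 5 and 6 reads over all libraries. KRT75 and KRT6B come next and were higher, and between KRT6B and KRT79 no member had enough reads for the fit. KRT8 (chr12:52897187-52949954, minus strand) and KRT18 (chr12:52948871-52952901, plus strand) close the cluster and went in opposite directions.

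On chromosome 17, KRT14 (chr17:41582279-41586921, minus strand), KRT16 (chr17:41609778-41615899, minus strand) and KRT17 (chr17:41619441-41624842, minus strand) sit at 1 end, with 22.857 kb between KRT14 and KRT16 and 3.542 kb between KRT16 and KRT17. KRT14 was 22.8-fold lower while KRT16 and KRT17 were 8.72-fold and 1.47-fold higher. KRT222 (chr17:40654665-40665181, minus strand), the other strongly lower member, lies at the opposite end. Among 29 other genes of the table within this cluster, 28 encode keratin-associated proteins, and none of those had enough reads for the fit.

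**Figure D3:**
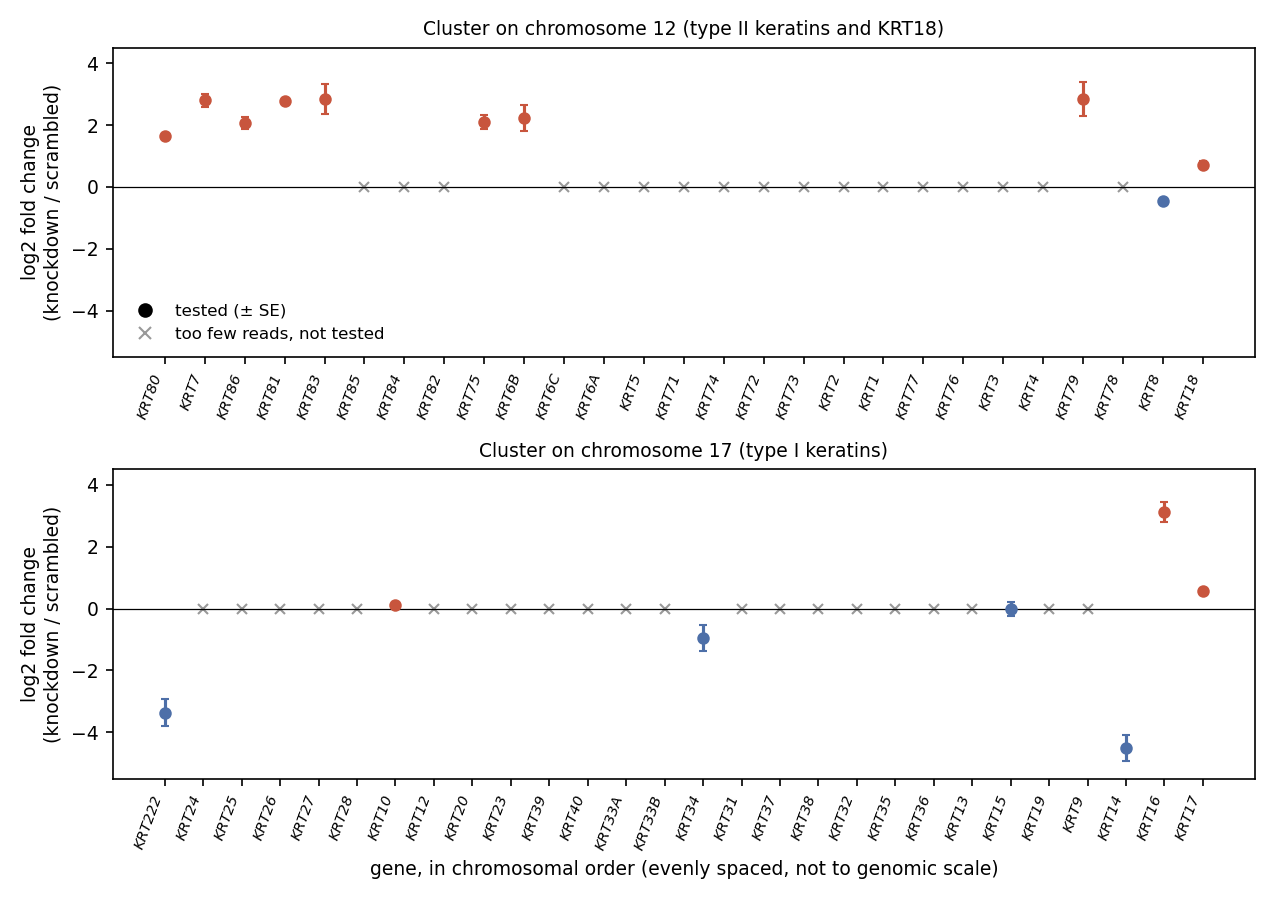
Log2 fold change (knockdown over scrambled, ± SE) of the keratin genes in chromosomal order in the chromosome 12 cluster (top) and the chromosome 17 cluster (bottom), evenly spaced; crosses mark genes with too few reads for the fit. The first 5 genes of the chromosome 12 cluster, grouped after their values were seen, lie between 1.64 and 2.83. KRT14, at -4.51, lies next to the higher KRT16 and KRT17.

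The RefSeq promoter table (GRCh38.p14) matched 34 of the 55 members and 7 of the 20 described. The 250 bases before the start of KRT75, the most abundant of these that was higher, and of KRT10, whose groups overlapped, are given 5′ to 3′ on the coding strand. Capitals mark matches to the motifs searched on both strands, which may overlap. These were the TATA box searched as TATAAA, the AP-1 site searched as TGANTCA, the GC box of SP1 searched as GGGCGG, the TEAD site searched as GGAATG, the grainyhead site searched as AACCNGTT, and the CArG box.
KRT75, chr12:52434372-52434621, minus strand: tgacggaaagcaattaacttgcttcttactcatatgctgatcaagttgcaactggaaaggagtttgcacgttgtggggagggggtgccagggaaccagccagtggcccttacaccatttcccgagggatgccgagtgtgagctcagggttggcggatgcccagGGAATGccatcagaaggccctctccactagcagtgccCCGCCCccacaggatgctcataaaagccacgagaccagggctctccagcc
KRT10, chr17:40822615-40822864, minus strand: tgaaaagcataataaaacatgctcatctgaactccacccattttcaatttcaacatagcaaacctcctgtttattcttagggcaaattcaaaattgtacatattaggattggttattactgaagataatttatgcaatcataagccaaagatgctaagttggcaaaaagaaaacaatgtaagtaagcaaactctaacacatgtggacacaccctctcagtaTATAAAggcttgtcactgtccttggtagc

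KRT75 held 1 TEAD match 87 bases and 1 GC box, on the opposite strand and so printed as CCGCCC, 50 bases before the RefSeq start. In GENCODE 29 KRT75 spans chr12:52424070-52434525, so both matches lie inside its annotated span there. KRT10 held 1 TATA box 29 bases before the start. Over 35116 promoters of the same length, 11.9% held the TEAD letters, 42.6% the GC box, 10.7% the TATA box, 6.57% the AP-1 letters, 1.49% the grainyhead letters and 1.16% a CArG box. A match describes the letters of the window and is not a binding site.

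GGACT, the most common form of the sequence in which N6-methyladenosine is found, occurred at a median of 1.07 per kb in the transcripts of the 17 tested keratins and of 0.944 per kb in 12349 tested genes with a matched transcript (85.1% of those tested). Among the members called higher it ranged from 0.43 per kb in KRT75 and 0.44 in KRT6B to 1.56 in KRT81 and 1.81 in KRT80. The 3 members called lower had 0 (KRT14), 0.47 (KRT8) and 1.17 per kb (KRT222), and of those not called KRT10 had 0 and KRT15 1.72 per kb. The values of the higher, lower and uncalled members overlapped. Methylation was not measured, and the keratin transcripts were also shorter (median 1929 against 3218 bases) and richer in G and C (median 59.1% against 49.3%) than the other genes.

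Genes whose products bind keratin filaments to junctions and to the cell surface were mostly higher. Of 23 listed linkers and components of desmosomes and hemidesmosomes, 15 were tested. Of these, 11 rose, 3 fell and 1 was not called, that is 93.3% called beside 61.6% of all tested genes. Over all tested genes 30.8% were called higher and 30.8% lower. The median log2 fold change was 0.53 beside 0.01 over all genes. EPPK1, which encodes the keratin-binding cytolinker epiplakin, had 14, 25 and 9 reads in the scrambled and 437, 451 and 357 reads in the knockdown libraries. Its log2 fold change was 4.83 (SE 0.25, edgeR adjusted p = 3.1e-08). PLEC, the linker plectin, stood at 685, 898 and 721 CPM and then at 2074, 1731 and 2040 CPM, a rise of 1.34 on the log2 scale (SE 0.11, edgeR adjusted p = 1.2e-06). DSG2, a desmosomal cadherin, rose from 69.5 ± 1.51 to 197 ± 8.35 CPM (SD, n = 3; edgeR adjusted p = 1.7e-08). ITGA6, the hemidesmosomal integrin chain, rose from 131 ± 3.35 to 256 ± 14.6 CPM (SD, n = 3; edgeR adjusted p = 4.6e-07).

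DSP, which encodes desmoplakin, the plakin that anchors keratins to desmosomes, was close to undetected. It had 3, 4 and 4 reads in the scrambled and 4, 3 and 1 reads in the knockdown libraries. JUP, plakoglobin, stood at 84.8, 78.4 and 65.2 CPM and then at 133, 88.8 and 94.6 CPM, with a log2 fold change of 0.47 (SE 0.16, edgeR adjusted p = 0.025). Its call was lost without knockdown library 1, where the log2 fold change was 0.27 (edgeR adjusted p = 0.056), without scrambled library 2 (adjusted p = 0.062) or 3 (adjusted p = 0.094), and with no scaling factor (adjusted p = 0.056). DSC2, another desmosomal cadherin, fell by 0.70 on the log2 scale (SE 0.15, edgeR adjusted p = 0.0018), and PKP4, an armadillo protein, fell by 0.30 (SE 0.07, edgeR adjusted p = 0.0035). PPL, periplakin, had a log2 fold change of -1.22 (edgeR adjusted p = 0.015), a call lost with DESeq2 (adjusted p = 0.066) and without scrambled library 2 (adjusted p = 0.068) or knockdown library 1 (adjusted p = 0.063).

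Among other intermediate filament genes more fell than rose. Of 15 listed, 9 were tested, 2 rose, 5 fell and 2 were not called, with a median log2 fold change of -0.39. That is 77.8% called beside 61.6% of all tested genes. VIM fell from 1936 ± 30.8 to 1478 ± 127 CPM (SD, n = 3), a log2 fold change of -0.39 (SE 0.08, edgeR adjusted p = 0.00095). LMNB1 and LMNB2, the B-type lamins of the nuclear envelope, had log2 fold changes of -0.92 and -0.60 (edgeR adjusted p = 2.8e-05 and 1.7e-05). SYNM, synemin, a partner of vimentin and desmin, had -3.72 (SE 0.30, edgeR adjusted p = 5.9e-07), and BFSP1, a filament protein of the lens, had -2.49 at a level near 1 CPM (edgeR adjusted p = 0.00019). NES, nestin, rose by 0.99 (SE 0.10, edgeR adjusted p = 3.8e-06) and LMNA, the A-type lamin, by 0.28 (SE 0.07, edgeR adjusted p = 0.0034).

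Transcription factors known to act on keratin genes went both ways. Of 23 listed, 19 were tested, 7 rose, 4 fell and 8 were not called, with a median log2 fold change of 0.11. That is 57.9% called, close to the 61.6% of all tested genes. JUNB, an AP-1 subunit, stood at 25.4, 23.5 and 30.3 CPM and then at 93.4, 66.8 and 88.2 CPM (log2 fold change 1.65, SE 0.14, edgeR adjusted p = 1.5e-06). ETS2 rose by 1.34 and CEBPB by 0.96 on the log2 scale (edgeR adjusted p = 1.5e-06 and 3.9e-05), and FOSL2, another AP-1 subunit, by 0.31 (edgeR adjusted p = 0.0031). RARG, a retinoic acid receptor, fell from 102 ± 7.01 to 17.7 ± 4.18 CPM (SD, n = 3; edgeR adjusted p = 1.3e-07). NFE2L2, the oxidative stress factor NRF2, had a log2 fold change of -1.22 (edgeR adjusted p = 3.1e-07), and TFAP2A, at a level near 1 CPM, had -1.83 (edgeR adjusted p = 0.00081). JUN had -0.35 (edgeR adjusted p = 0.012), a call lost without scrambled library 2 (adjusted p = 0.073) or knockdown library 2 (adjusted p = 0.051). TP63, the factor of basal keratinocytes that acts on KRT5 and KRT14, had 17, 10 and 2 reads in the scrambled and 0, 1 and 1 reads in the knockdown libraries, too few for the fit.

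Of 6 repressors of epithelial genes, 4 were tested, and 50% of these were called beside 61.6% of all tested genes. ZEB1 rose from 68.6 ± 5.40 to 94.6 ± 7.71 CPM (SD, n = 3; edgeR adjusted p = 0.00094). SNAI2 fell from 30.7 ± 5.87 to 20.4 ± 1.29 CPM (SD, n = 3; edgeR adjusted p = 0.0029). The other 2 were not called. Of the 4 tested, 1 had a positive and 3 a negative log2 fold change, with a median of -0.29 beside 0.01 over all tested genes. ZEB2, named after its values were seen, had 11, 13 and 14 reads in the scrambled and 1, 0 and 1 reads in the knockdown libraries, too few for the fit.

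All 12 listed chaperones, adaptors and enzymes that bind keratins were tested. Of these, 4 rose, 2 fell and 6 were not called, that is 50% called beside 61.6% of all tested genes. Their median log2 fold change was -0.03. SFN, the 14-3-3 sigma protein that binds KRT17 and KRT18, rose from 122 ± 23.0 to 188 ± 10.5 CPM (SD, n = 3; edgeR adjusted p = 0.0008). CSNK1A1, a kinase that acts on keratin filaments, rose by 0.40 on the log2 scale (edgeR adjusted p = 0.00077). YWHAZ had 0.23 (edgeR adjusted p = 0.028), and TGM2, a crosslinking transglutaminase, 0.93 (edgeR adjusted p = 0.049). The call of YWHAZ was lost without scrambled library 1 or 3 or knockdown library 2 and with no scaling factor, at adjusted p between 0.080 and 0.095. That of TGM2 was lost under 6 alternatives, among them without scrambled library 1 or 2 or knockdown library 1 or 3, at adjusted p between 0.053 and 0.13. HSPA8, a constitutive chaperone, had a log2 fold change of -0.93 and STUB1, a ubiquitin ligase that works with it, -0.90 (edgeR adjusted p = 1.1e-06 and 3.3e-06).

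Markers of epithelial cells went both ways. Of 23 such markers, 14 were tested, 4 rose, 4 fell and 6 were not called. That is 57.1% called, close to the 61.6% of all tested genes. The median log2 fold change was 0.07, although their summed level went from between 84.8 and 86.4 CPM to between 145 and 151 CPM. CLDN1 and CLDN4, claudins of tight junctions, rose by 2.89 and 1.07 on the log2 scale (edgeR adjusted p = 1.2e-07 and 1.6e-06). CDH1, which encodes E-cadherin, had 12, 12 and 8 reads and then 26, 30 and 24 reads (log2 fold change 1.45, edgeR adjusted p = 0.0015), and CDH3, P-cadherin, had 1, 2 and 2 reads and then 29, 33 and 31 reads (edgeR adjusted p = 4.1e-06). EPCAM, an epithelial adhesion molecule, stood at 5.95, 4.85 and 4.92 CPM and then at 6.24, 7.68 and 3.58 CPM, groups that overlapped (edgeR adjusted p = 0.61). TJP3, CLDN7, MARVELD3 and GRHL1 fell, with log2 fold changes of -2.52, -2.46, -2.36 and -0.69 (edgeR adjusted p = 1.1e-05, 9.9e-05, 0.0048 and 0.0098).

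**Figure D4:**
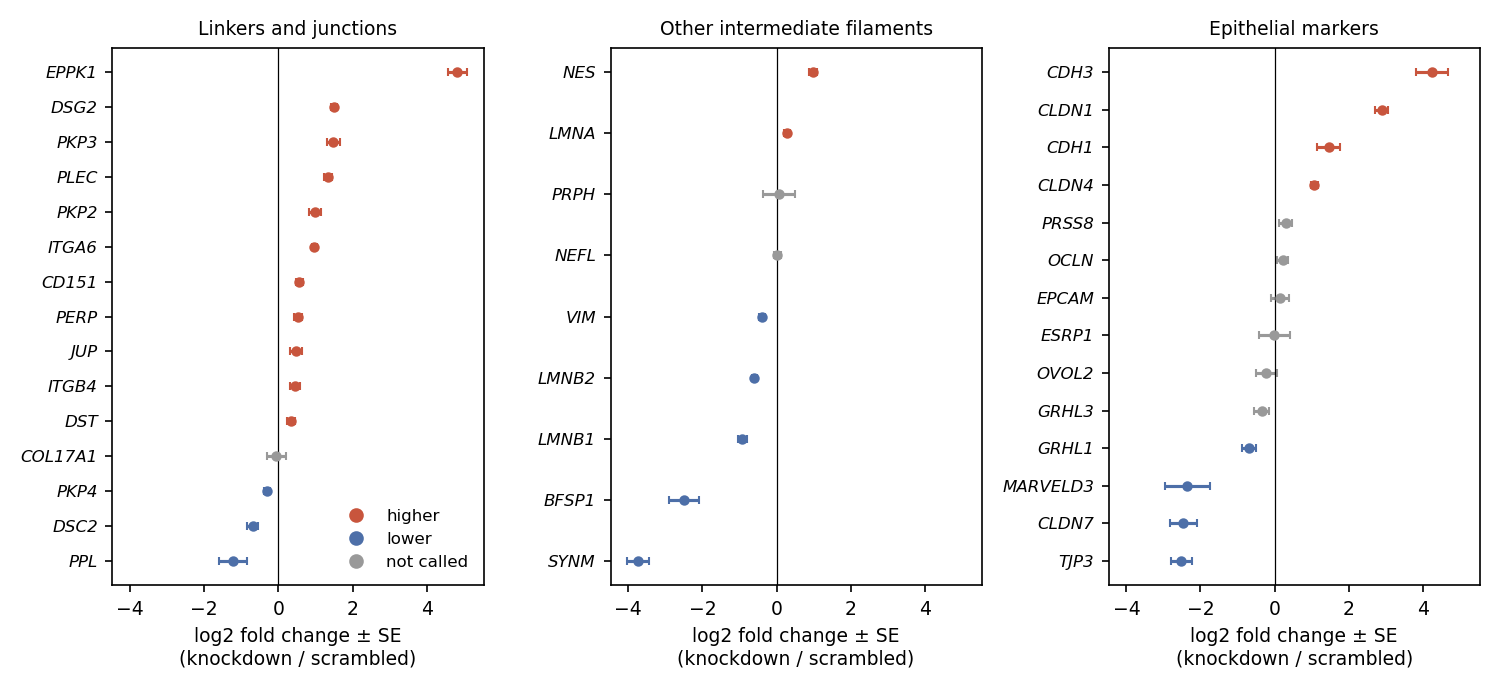
Log2 fold change (± SE, knockdown over scrambled) of the tested genes in the lists of keratin linkers and junctions (left), other intermediate filaments (middle) and epithelial markers (right), 1 point per gene, coloured by call. Most linkers lie to the right of 0, with EPPK1 farthest at 4.83, whereas the filament genes and epithelial markers lie on both sides.

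Markers of differentiated keratinocytes were low as a group. Their summed level over 22 genes was 12.5 to 15.3 CPM in the scrambled and 10.5 to 12.8 CPM in the knockdown libraries, and 6 of them (SPRR1A, SPRR1B, SPRR3, S100A7, CASP14 and LCE3D) had 0 reads. Of 8 tested, 1 rose, 3 fell and 4 were not called, that is 50% called beside 61.6% of all tested genes. S100A9, a calcium-binding protein of inflamed skin and of neutrophils, had 3, 1 and 1 reads and then 35, 21 and 31 reads (edgeR adjusted p = 1.2e-05). KLK7, CNFN and TGM5 had log2 fold changes of -2.34, -0.72 and -1.45 (edgeR adjusted p = 0.0048, 0.0084 and 0.0095), and the call of TGM5 was lost with DESeq2 (adjusted p = 0.062).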

How the data were processed

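The authors deposited raw read counts per gene symbol, per the file headers. They used CASAVA 1.8.2, TopHat2, SAMtools, HTSeq and hg19, per the submitters' processing notes. Settings, gene annotation and strandedness: not given in the sources used here. HTSeq's 5 summary lines were left out of library sizes and tests. Reads outside genes were 15.0% to 18.6% of uniquely placed reads, and ambiguous reads 0.737% to 0.856%. Alignments that were not unique numbered 11315580 to 13887503 per library. Of the columns, 0 matched no sample. No library was a repeat of another within sampling noise.

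Counts were fitted with edgeR 4.0.16 in R 4.3.3 (filterByExpr, TMM, robust glmQLFit and glmQLFTest, 2-sided, group as the single term), with Benjamini-Hochberg adjustment over all 14504 tested genes and a threshold of 0.05. CPM values are TMM-scaled and fold changes are knockdown over scrambled. The fit was tried on simulated data in which 200 genes were changed. That is far fewer than were called here, so the trial does not show how the fit behaves under changes this wide. CPM per kb uses 1 GENCODE 29 transcript per gene.

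The members and the 10 lists of other genes were chosen with earlier results of these data known. Keratins with at least 30 reads in all are described singly. From each list were named up to 4 genes with the smallest adjusted p in each direction, and VIM, DSP, JUP, PLEC, TP63, CDH1, EPCAM, ZEB1 and SNAI2 whatever their p. Genes of the osteoblast, leukocyte and endothelial lists are given as a check of the cells. Alternatives were RLE scaling, library totals, no filter, DESeq2 1.42.0, limma-voom (limma 3.58.1), a filter of 1 CPM in 3 libraries, a block on the replicate number, and leaving out 1 library at a time.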

Additional observations from a re-analysis of the deposited data

How the results depend on the processing

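All 14 called keratins kept their sign and their call under every alternative in which they were tested. The number of lower keratins was 3, and it was 7 with no filter on low counts (KRT23, KRT5, KRT71 and KRT9 added) and 6 with DESeq2 (KRT23, KRT5 and KRT71 added). It was 4 with the replicate block and without scrambled library 1 or 3 or knockdown library 1 or 3. Higher keratins numbered 11, but 9 with at least 1 CPM in 3 libraries and 12 without scrambled library 2. Lower repressors of epithelial genes numbered 1, and 2 with library totals, no filter or DESeq2, and between 1 and 3 with a library left out, the most without knockdown library 1. Higher keratin-binding genes numbered 4, and 2 to 3 with a library left out, the fewest without scrambled library 1. Lower keratinocyte markers numbered 3, and 1 with at least 1 CPM in 3 libraries. EPCAM, at 0.15 and not called, ranged from -0.093 without knockdown replicate 2 to 0.41 without knockdown replicate 3. The sign of KRT15 also turned, to 0.19 without scrambled library 3 and to 0.14 without knockdown library 2, and KRT34 was called lower in 2 of 13 alternatives. The cause of these shifts was not tested. Lengths from unshared windows gave type I totals of 356 and 535 and type II totals of 667 and 2668 CPM per kb in scrambled and knockdown libraries. Genes under 30 reads are limited by depth.

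Same-numbered libraries deviated together with correlations of 0.331, 0.0578 and 0.351 over 14504 genes. Differently numbered libraries ranged from -0.367 to 0.0768. The highest of these was scrambled library 2 with knockdown library 1, above its correlation with knockdown library 2. These values do not settle whether the numbers pair the samples. The fit behind the quoted p-values took no account of the numbers. With the replicate number as a block, 4865 genes were higher and 4895 lower, against 4471 and 4466 without it, and lower repressors numbered 2.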

Other observations

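Keratin pseudogenes listed in the table had few reads. KRT42P had 15, 10 and 15 reads in the scrambled and 8, 8 and 5 reads in the knockdown libraries. KRT8P41 had 1, 6 and 6 reads and then 1, 1 and 4 reads, and KRT19P2 had 3, 0 and 4 reads and then 1, 0 and 2 reads. KRT16P2 had no read in the scrambled libraries and 1, 1 and 0 reads in the knockdown libraries.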
